A study of Mus musculus with 12 samples.

Results

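The 36 genes described here are mouse genes whose human counterparts are associated with autism, chosen by name and apart from Chd8. All 36 were present among the 12158 genes of the authors' expression table, and all 36 passed a filter on low values that kept 12102 genes. Whole forebrain was dissected from Chd8+/del5 heterozygous (Het) C57BL/6N mice, which carry a germline mutation in 1 copy of the chromatin remodeller gene Chd8, and from their wild-type (WT) littermates. The stages were e12.5, e14.5 and e17.5 (embryonic days), birth (P0) and adulthood (labelled P56). Stranded libraries of polyadenylated RNA were sequenced as paired ends of 100 bp at e12.5 and as single ends of 50 bp at every other stage, so stage and read type cannot be told apart wherever e12.5 is one of the stages compared.

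The table held 44 libraries, with 8 at e12.5, 9 at e14.5, 10 at e17.5, 11 at P0 and 6 in adults, while the labels name 1 WT and 1 Het sample for each stage. Library names carry the stage, but no genotype in terms that the labels explain. No library was therefore given a genotype, no Het against WT difference was computed, and each stage below mixes both genotypes. Values are the authors' deposited log RPKM, the logarithm of reads scaled by gene length and by library size, read here as log2, since the base is not stated. Each stage is given by its median and its range over libraries. A gene was called higher or lower in a stage than in another when the ranges of both stages did not overlap. No p-value is given, because the libraries could not be matched to the labelled samples. Chd8 itself had stage medians of 4.31, 4.01, 3.94, 4.14 and 3.72 over the 5 stages, which cannot check the genotypes. Library totals are not given in the table, so the depth behind each value is unknown. In whole tissue, fewer cells of a type and less RNA per cell cannot be told apart.

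Genes found through rare mutations in autism act in a few recurring processes. Many encode proteins that read, write or remodel chromatin, or transcription factors that set the identity of neurons. Others control translation, RNA decay, protein degradation or growth signalling, and a smaller number build the neuronal surface, its membrane skeleton and its microtubules. The 36 genes were sorted by role into 11 chromatin and histone regulators, 7 transcription factors and co-regulators, 5 genes of RNA, translation and protein acetylation, 6 genes of growth signalling and ubiquitin, and 7 genes of the cell surface, matrix, membrane skeleton and microtubules.

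The 200 bases before the annotated start are shown for 4 genes, picked after their values were seen, with opposite courses through development. Phip and Naa15 had their highest median at e12.5 and their lowest in adults, while Ank2 and Cntn4 had their lowest at e12.5 and their highest in adults. The sequences are from RefSeq on build GRCm38.p6, each written on the strand of its gene, with every CG dinucleotide in capitals. Phip lies at chr9:82975490-82975689 (minus strand), Naa15 at chr3:51415816-51416015 (plus), Ank2 at chr3:127499116-127499315 (minus) and Cntn4 at chr6:106118565-106118764 (plus).
Phip: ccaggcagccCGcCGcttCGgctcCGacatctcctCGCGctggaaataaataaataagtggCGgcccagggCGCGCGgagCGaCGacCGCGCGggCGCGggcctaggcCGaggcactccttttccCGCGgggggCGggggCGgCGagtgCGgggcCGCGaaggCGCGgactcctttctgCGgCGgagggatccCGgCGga
Naa15: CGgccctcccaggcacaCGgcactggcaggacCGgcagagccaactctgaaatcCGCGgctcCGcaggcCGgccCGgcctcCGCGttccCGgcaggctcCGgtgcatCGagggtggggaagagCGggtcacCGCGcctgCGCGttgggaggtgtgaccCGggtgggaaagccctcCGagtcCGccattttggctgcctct
Ank2: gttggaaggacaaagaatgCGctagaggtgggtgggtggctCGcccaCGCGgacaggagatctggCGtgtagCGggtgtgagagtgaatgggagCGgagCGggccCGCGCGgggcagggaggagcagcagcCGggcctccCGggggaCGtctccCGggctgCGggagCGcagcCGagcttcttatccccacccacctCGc
Cntn4: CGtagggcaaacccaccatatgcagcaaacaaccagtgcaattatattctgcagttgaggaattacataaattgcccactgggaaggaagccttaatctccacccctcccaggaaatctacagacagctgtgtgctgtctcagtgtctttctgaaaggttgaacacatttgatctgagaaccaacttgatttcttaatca
The Phip window holds 32 CG dinucleotides, that of Naa15 21, that of Ank2 19 and that of Cntn4 1. Cntn4, with the fewest of these 4, had the widest span between stages among the 36 genes. Setd5, with 0 in the 250 bases before its start, spanned 1.05 log2. A link between CG number and span was not tested. RefSeq promoters were used for 30 of the 36 genes, with the most upstream start of each gene. Any member on 1 of the chromosomes was left out, a limit not set on the other genes. Over the 250 bases before the start these 30 held a median of 16 CG dinucleotides (lowest 0, highest 51), against a median of 17 in 9150 other genes. At least 10 were present in 83.3% of the 30 promoters, against 78.3% of the others. The letters CCGGAAG, a motif bound by ETS transcription factors, were found on either strand in 5 of the 30 (16.7%), against 13.7% of the others, and in none of the 4 windows shown. These are descriptions of sequence on another build than the authors' mm9, and were not related to Chd8 binding.

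Adult medians were the lowest of the 5 stages for most of the 36 genes. The highest stage median fell at e12.5 in 14 genes, at e14.5 in 3, at e17.5 in 4, at P0 in 9 and in adults in 6. The lowest stage median was the adult one in 23 of the 36 genes, while 37.5% of all genes were lowest in adults. For the highest median, the share of all genes was 34.2% at e12.5, 10.6% at e14.5, 6.09% at e17.5, 14.8% at P0 and 34.3% in adults. The peak stage stood apart from the next highest, with ranges that did not overlap, in 11 genes. These were Setd5, Wac, Ddx3x, Naa15, Trip12, Cntnap2 and Katnal2 at e12.5, Cic at P0, and Ash1l, Ank2 and Cntn4 in adults. For Ash1l the next highest was e17.5, the only stage its adult range (3.70 to 4.04) stood apart from. That range overlapped those of e12.5, e14.5 and P0. The peak stage of the other 25 genes is an order of medians whose neighbours did not differ beyond their spread. The difference between the highest and the lowest stage median was 1.21 log2 in the middle gene, and ran between 0.24 for Tsc2 and 3.85 for Cntn4. It was below 1 log2 in 13 of 36 genes (36.1%), close to the 34.7% of all genes, whose middle value was 1.37.

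**Figure D1:**
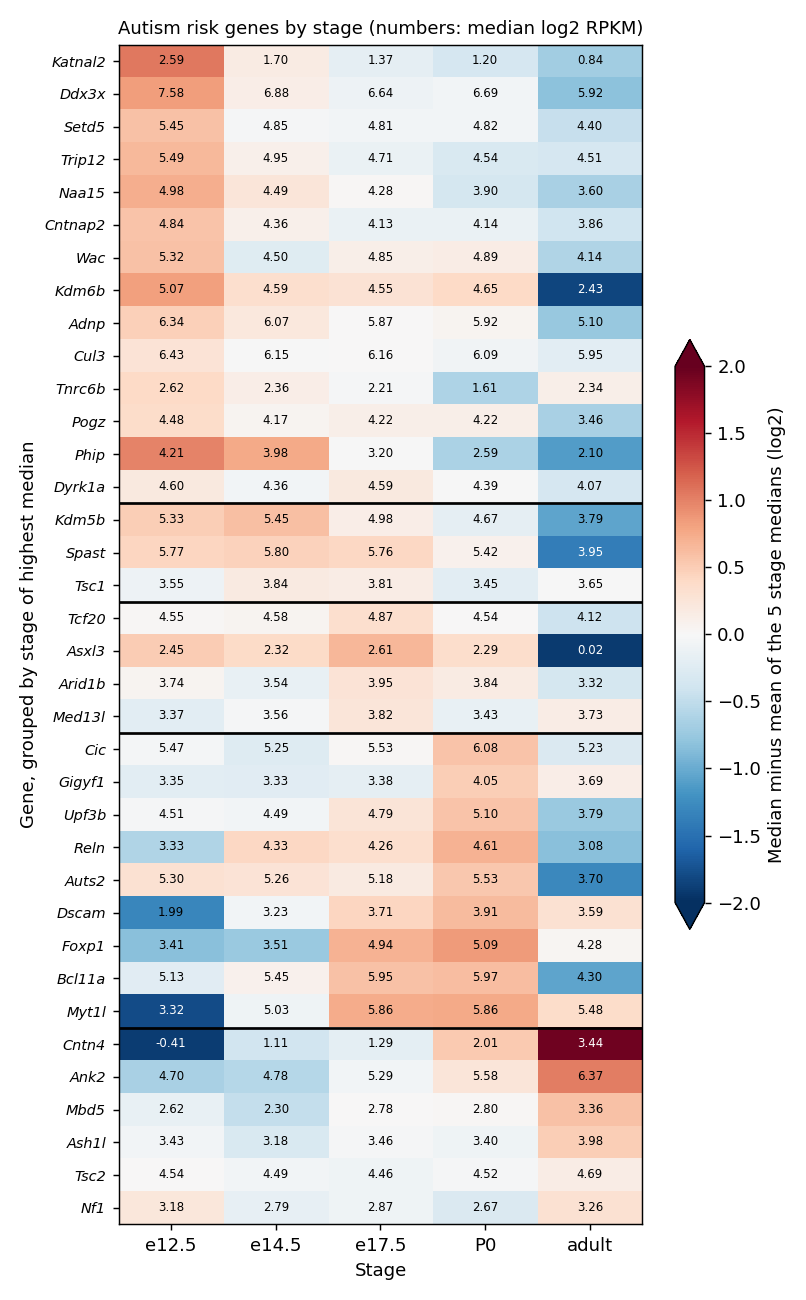
Heat map of the 36 genes (rows, grouped by the stage of the highest median) over 5 stages (columns). Numbers are median log2 RPKM over 6 to 11 libraries, and colour is the median minus the gene's mean over the 5 stage medians, in log2 units and cut at 2 either way. The adult column is the lowest for 23 of the 36 genes and the highest for 6.

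Of the 11 chromatin regulators, 6 had their highest median at e12.5, 1 at e14.5, 2 at e17.5 and 2 in adults. Kdm6b, a demethylase that removes the repressive mark on lysine 27 of histone H3, had medians of 5.07 at e12.5, 4.59 at e14.5, 4.55 at e17.5, 4.65 at P0 and 2.43 in adults. Its adult libraries lay between 2.16 and 3.59, below the lowest library of any earlier stage (4.15 at e14.5). Asxl3, a scaffold of the enzyme that removes ubiquitin from histone H2A, had medians of 2.45, 2.32, 2.61 and 2.29 over the 4 stages up to birth and of 0.02 in adults. The adult libraries of Asxl3 spread widely, between −0.67 and 1.57, and the highest of them stood above the lowest e14.5 library, at 1.27.

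Phip, which encodes a bromodomain protein, and Kdm5b, a demethylase of lysine 4 of histone H3, were lower in adults than in the early embryo without a sharp step. Phip had medians of 4.21, 3.98, 3.20, 2.59 and 2.10 from e12.5 to adults, and each neighbouring pair of stages overlapped. Kdm5b had medians of 5.33, 5.45, 4.98, 4.67 and 3.79 over the same stages. Phip was also variable within e14.5, where its libraries ran between 3.19 and 4.63.

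Adnp, a zinc finger and homeodomain protein of a chromatin remodelling complex, had medians of 6.34, 6.07, 5.87, 5.92 and 5.10 from e12.5 to adults. Pogz, a zinc finger protein that binds heterochromatin protein 1, had medians of 4.48, 4.17, 4.22, 4.22 and 3.46. Wac, an adaptor for ubiquitination of histone H2B, had medians of 5.32, 4.50, 4.85, 4.89 and 4.14. All of these genes were lower in adults than at P0, with ranges apart. Setd5, a SET domain protein, had medians of 5.45, 4.85, 4.81, 4.82 and 4.40, and its e12.5 libraries (5.30 to 5.58) all lay above the libraries of every other stage, the highest of which was 5.11 at P0.

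A smaller set of chromatin genes ran the other way. Ash1l, a methyltransferase for lysine 36 of histone H3, had medians of 3.43, 3.18, 3.46, 3.40 and 3.98 from e12.5 to adults. Mbd5, of the methyl-CpG binding domain family, had medians of 2.62, 2.30, 2.78, 2.80 and 3.36. In both, adults were highest, but the adult range overlapped that of P0: for Mbd5 it was 3.05 to 3.58 in adults, against 2.66 to 3.27 at P0. Arid1b, a DNA-binding subunit of the BAF remodelling complex, varied little, with medians of 3.74, 3.54, 3.95, 3.84 and 3.32.

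All 7 transcription factors and co-regulators had their highest median late in gestation or at birth, 2 at e17.5 and 5 at P0, and none in adults. Foxp1, a forkhead factor of cortical and striatal neurons, had medians of 3.41 at e12.5, 3.51 at e14.5, 4.94 at e17.5, 5.09 at P0 and 4.28 in adults. Every e17.5 and P0 library of Foxp1 (lowest 4.62) lay above every e12.5 and e14.5 library (highest 3.81). Myt1l, a zinc finger factor that represses non-neuronal genes in neurons, had medians of 3.32, 5.03, 5.86, 5.86 and 5.48. Its libraries were apart at e14.5 (lowest 4.30), against e12.5 (highest 3.70), and again at e17.5 (lowest 5.61), against e14.5 (highest 5.38).

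Bcl11a, a zinc finger repressor of developing projection neurons, had medians of 5.13, 5.45, 5.95, 5.97 and 4.30 from e12.5 to adults. Auts2, which belongs to a form of Polycomb repressive complex and acts in neuronal migration, was nearly level before birth and low afterwards, with medians of 5.30, 5.26, 5.18, 5.53 and 3.70. Cic, the repressor Capicua that acts downstream of Ras and MAPK signalling, had medians of 5.47, 5.25, 5.53, 6.08 and 5.23. For Cic, P0 stood alone: its libraries ran between 5.88 and 6.45, and the highest library of any other stage was 5.80, at e17.5. Tcf20, a co-regulator related to Rai1, had medians of 4.55, 4.58, 4.87, 4.54 and 4.12, and Med13l, a subunit of the Mediator kinase module, had medians of 3.37, 3.56, 3.82, 3.43 and 3.73.

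**Figure D2:**
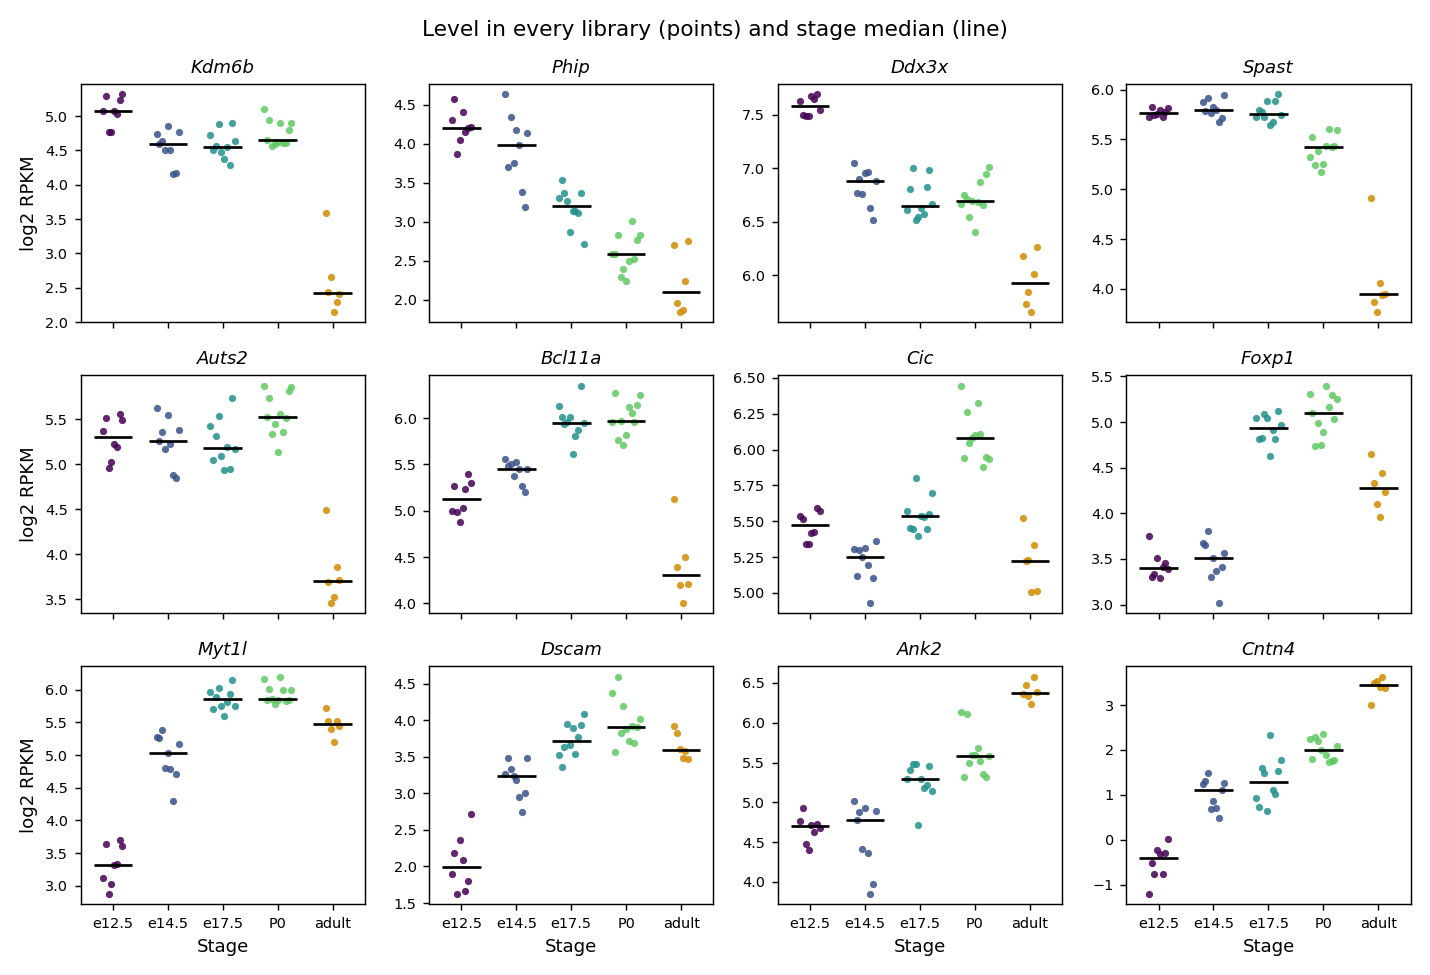
Level of 12 genes in each of 44 libraries (points, log2 RPKM, one axis per gene) by stage, with the stage median as a line. Kdm6b, Spast and Auts2 show 1 adult library above the other 5, Cic peaks at P0, and Cntn4 and Ank2 are highest in adults.

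Of the 5 genes of RNA, translation and protein acetylation, 3 had their highest median at e12.5 and 2 at P0. Ddx3x, an X-linked RNA helicase of translation initiation and the most abundant of the 36 genes at each stage up to birth, had medians of 7.58, 6.88, 6.64, 6.69 and 5.92 from e12.5 to adults. Its e12.5 libraries (7.48 to 7.69) were all above, and its adult libraries (5.66 to 6.26) all below, those of the stages between. Naa15, the auxiliary subunit of the N-terminal acetyltransferase NatA, had medians of 4.98, 4.49, 4.28, 3.90 and 3.60, the same direction at every step. Ddx3x has a close copy on the Y chromosome, Ddx3y, and how reads that fit both were counted is not given.

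Upf3b, an X-linked factor of nonsense-mediated decay, had medians of 4.51, 4.49, 4.79, 5.10 and 3.79. Gigyf1, which represses translation together with a cap-binding protein, had medians of 3.35, 3.33, 3.38, 4.05 and 3.69. Tnrc6b, a GW182 protein of microRNA silencing, had its lowest median at P0, with medians of 2.62, 2.36, 2.21, 1.61 and 2.34. The sexes were present in different proportions by stage: Xist, the RNA of the inactive X in females, was above 0 log2 RPKM in 6 of 8 libraries at e12.5, 5 of 9 at e14.5, 5 of 10 at e17.5, 9 of 11 at P0 and 1 of 6 in adults. Its part in the values of the X-linked Ddx3x and Upf3b was not tested.

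All 6 genes of growth signalling and ubiquitin spanned less than 1 log2 between stages. Tsc1 and Tsc2, whose products form the complex that restrains the growth kinase mTOR, had stage medians between 3.45 and 3.84 and between 4.46 and 4.69. Tsc2 had the smallest span of the 36 genes. Nf1, a brake on Ras, had medians of 3.18, 2.79, 2.87, 2.67 and 3.26. Cul3, the scaffold of a family of ubiquitin ligases, had medians of 6.43, 6.15, 6.16, 6.09 and 5.95. Dyrk1a, a kinase whose dosage affects brain growth, had medians of 4.60, 4.36, 4.59, 4.39 and 4.07, and Trip12, a HECT ubiquitin ligase, 5.49, 4.95, 4.71, 4.54 and 4.51. The step after e12.5 was the only one of the 5 comparisons below in which any of these genes had ranges apart.

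The 7 surface and skeleton genes divided by direction. Cntn4, an immunoglobulin-family adhesion molecule of axons, had medians of −0.41 at e12.5, 1.11 at e14.5, 1.29 at e17.5, 2.01 at P0 and 3.44 in adults. Its adult libraries ran between 3.01 and 3.63, all above the highest P0 library at 2.35. Ank2, which encodes ankyrin-B, the adaptor between membrane proteins and the spectrin skeleton, had medians of 4.70, 4.78, 5.29, 5.58 and 6.37, with adult libraries between 6.23 and 6.58. Dscam, an adhesion molecule of neurite self-avoidance, had medians of 1.99, 3.23, 3.71, 3.91 and 3.59.

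Reln, the secreted guide of migrating cortical neurons, had medians of 3.33, 4.33, 4.26, 4.61 and 3.08, and was lowest at both ends of the series. Spast, the microtubule-severing enzyme spastin, stayed between 5.76 and 5.80 in the 3 embryonic stages, then had medians of 5.42 at P0 and 3.95 in adults. Cntnap2, the neurexin-like partner of axonal potassium channels, had medians of 4.84, 4.36, 4.13, 4.14 and 3.86. Katnal2, related to the microtubule-severing katanins, had medians of 2.59, 1.70, 1.37, 1.20 and 0.84. Cntnap2 and Katnal2 were thus highest at e12.5, and their e12.5 ranges lay above those of all other stages.

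The first comparison asked how e14.5 differed from e12.5. At e14.5, 3 genes were higher and 9 lower, where 23.1% of all genes were higher and 22.3% lower. The 3 and 9 genes are 8.33% and 25.0% of the 36, so the share of lower genes was near the background and that of higher genes below it. The higher genes were Myt1l by 1.71, Cntn4 by 1.53 and Dscam by 1.24 log2. The lower genes were Katnal2 (−0.89), Wac (−0.82), Ddx3x (−0.71), Setd5 (−0.61), Trip12 (−0.55), Naa15 (−0.49), Cntnap2 (−0.48), Cul3 (−0.28) and Dyrk1a (−0.25). The median difference was −0.21 over the 36 genes and 0.03 over all genes. The calls for Ddx3x and Cul3 were lost with quantile normalization. The change of read type runs through this comparison.

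Between e17.5 and e14.5, 5 genes were higher at e17.5 and 0 lower, where 13.1% of all genes were higher and 12.1% lower. The 5 genes are 13.9% of the 36, close to the background. They were Foxp1 (1.43), Myt1l (0.83), Bcl11a (0.50), Wac (0.35) and Cic (0.28), of which 4 are transcription factors. The e17.5 libraries come in 2 naming sets of 5. With the second set alone 8 genes were higher, and with either set alone 1 was lower. Fewer libraries give narrower ranges, and the shares of all genes with single sets are not given here. At P0 against e17.5, 1 gene was higher and 2 lower, where 4.89% of all genes were higher and 6.28% lower. Cic was higher by 0.55, while Spast (−0.34) and Naa15 (−0.38) were lower. Both calls for Cic were lost with quantile normalization. Gigyf1, at 4.05 (3.82 to 4.57) at P0, against 3.38 (3.10 to 3.84) at e17.5, overlapped by a single library on either side, and was called higher without P0 library 4 or without e17.5 library 2.

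Among neighbouring stages, birth and adulthood differed in the most genes of the 36, as they also did over all genes. This step spans the longest time. In adults 2 genes were higher and 14 lower than at P0, where 29.3% of all genes were higher and 25.2% lower. As shares of the 36 genes these are 5.56% higher and 38.9% lower. The median difference was −0.40 over the 36 genes and −0.01 over all genes, and 27 of 36 adult medians lay below those of P0, against 50.7% of all genes. Without adult library 1, whose values are given further below, the number of lower genes was 20. The share of all genes in that setting is not given here. This library was the highest adult library in 29.9% and the lowest in 26.2% of all genes, so leaving it out narrows many other ranges too.

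The lower genes in adults included 5 of the 11 chromatin regulators and 5 of the 7 transcription factors. Asxl3 was 4.81-fold and Kdm6b 4.66-fold lower in adults than at P0, with Kdm6b at 2.43 (2.16 to 3.59) in adults, against 4.65 (4.56 to 5.11) at P0. Auts2 was 3.54-fold lower, with 3.70 (3.46 to 4.49) in adults, against 5.53 (5.14 to 5.87) at P0. Bcl11a was 3.18-fold lower, with 4.30 (4.01 to 5.13) in adults, against 5.97 (5.71 to 6.27) at P0. In each of these genes the highest adult library lay below the lowest P0 library.

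Reln was 2.89-fold lower in adults, at 3.08 (2.61 to 3.90), against 4.61 (4.45 to 4.90) at P0. Spast was 2.78-fold lower and Upf3b 2.49-fold lower. The other lower genes differed by less than 1 log2: Cic (−0.86), Adnp (−0.82), Foxp1 (−0.81), Ddx3x (−0.77), Pogz (−0.76), Wac (−0.76) and Myt1l (−0.39). The higher genes were Cntn4, 2.70-fold, and Ank2, 1.73-fold. Ank2 was no longer apart with quantile normalization. None of the 6 growth signalling and ubiquitin genes was called in either direction.

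Measured over the whole of postnatal and late embryonic life, adults had 4 genes higher and 13 lower than e14.5, where 30.8% of all genes were higher and 32.4% lower. As shares of the 36 genes these are 11.1% higher and 36.1% lower. The higher genes were Cntn4 (2.33), Ank2 (1.59), Mbd5 (1.06) and Foxp1 (0.77). The largest of the lower differences were those of Kdm6b (−2.16), Phip (−1.88), Spast (−1.85), Kdm5b (−1.65), Auts2 (−1.56) and Bcl11a (−1.15). Foxp1 was thus lower in adults than at P0 but higher than at e14.5, since it stood at 4.28 in adults, against 5.09 at P0 and 3.51 at e14.5. This comparison shares the adult libraries with the one against P0.

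**Figure D3:**
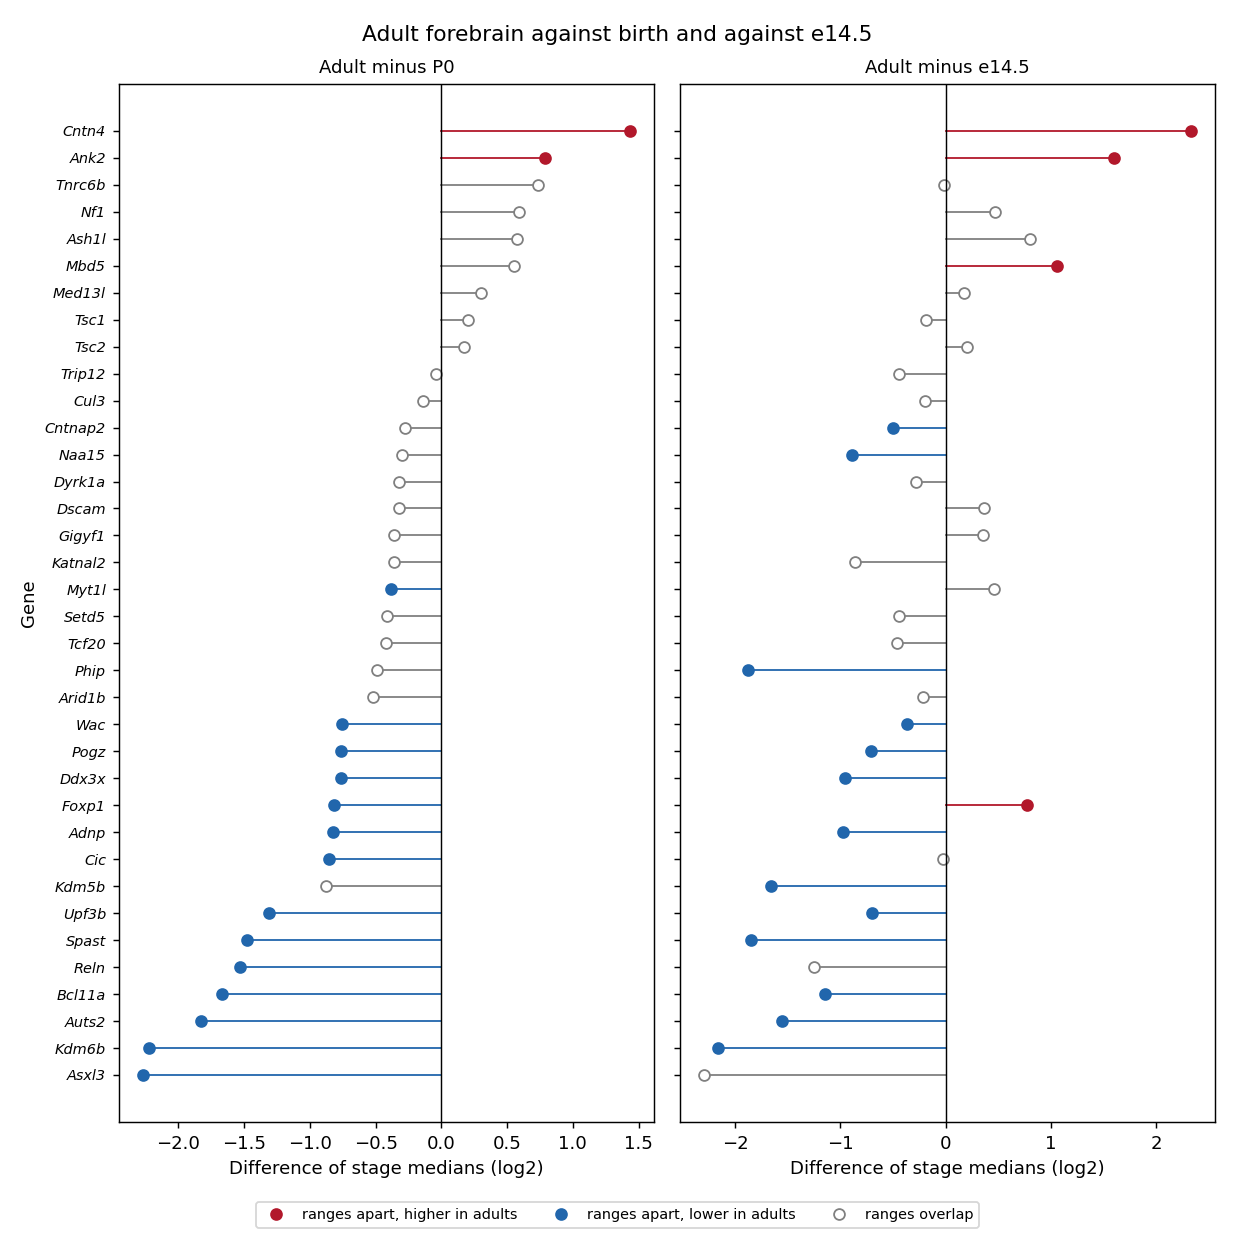
Difference of stage medians (log2) for 36 genes, adult minus P0 (left) and adult minus e14.5 (right), with genes in the order of the left panel. Filled points mark ranges that did not overlap, 2 higher and 14 lower on the left, 4 higher and 13 lower on the right, and open points mark ranges that overlapped.

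Summed cell type markers differed between the same stages. The summed level of 5 dividing-cell markers had medians of 8.65, 7.42, 5.69, 4.72 and 0.61 log2 RPKM from e12.5 to adults, and 4 markers of new neurons stood at 8.50 in adults, against 11.23 at P0. Markers of mature neurons had a median sum of 12.22 in adults, against 9.07 at P0, and those of oligodendrocytes one of 10.25 in adults, against at most 4.35 in any P0 library. Sums of radial glia markers stood at 6.81 in adults, against 9.80 at P0, of astrocyte markers at 8.48, against 7.24, and of microglia markers at 6.51, against 3.81. At e14.5 the sum of blood markers was 7.86, against 11.74 at e12.5. The forebrain markers Emx1, Emx2 and Lhx2 were present throughout, but lower in adults than at P0 for Emx2 (2.63 in adults, against 3.58 at P0) and Lhx2 (4.86, against 5.99), with ranges apart. Emx1 stood at 4.71 in adults, against 4.92 at P0, with ranges that overlapped. The part of cell composition in the stage differences of the 36 genes was not tested.

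Partner genes of 9 of the pathways were counted in the same way. Of 24 measured genes of BAF and closely related complexes, listed beside Arid1b, 18 were lower in adults than at P0 and 1 higher, with a median difference of −0.95. The lower ones included the ATPase gene Smarca4, at 5.36 in adults, against 6.38 at P0, the core subunit gene Smarce1, at 3.49, against 5.60, and Arid1a, at 4.23, against 5.17. The neuronal subunit genes Actl6b and Dpf1 were lower too, by −1.03 and −1.34. Not all of the lower genes act with Arid1b. Arid2, Pbrm1, Phf10, Brd7 and Brd9 belong to forms of the complex without it, and Arid1a is its alternative. Arid1b itself, at 3.32 (3.12 to 3.77) in adults, against 3.84 (3.61 to 4.21) at P0, had ranges that overlapped.

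Genes of the axonal membrane, the company of Ank2, Cntn4 and Cntnap2, ran mostly upward. Of 22 measured, 13 were higher and 1 lower at e14.5 than at e12.5, 10 higher and 0 lower at e17.5 than at e14.5, and 4 higher and 0 lower at P0 than at e17.5. The shares of all genes were 23.1% and 22.3%, 13.1% and 12.1%, and 4.89% and 6.28% for these 3 steps, higher first. In adults 11 were higher and 5 lower than at P0, with a median difference of 0.53. The potassium channel genes Kcna1 and Kcna2 stood at 5.05 and 4.93 in adults, against 0.73 and 1.41 at P0. The beta-spectrin gene Sptbn4 stood at 5.09 in adults, against 3.79 at P0. The lower genes were the adhesion genes L1cam, Cntn5, Cntn6 and Cntnap3 and the band 4.1 gene Epb4.1.

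The signalling lists held genes of both directions in adults against P0. Of 28 TSC, mTOR and Ras-MAPK genes, 9 were higher and 7 lower, with Mtor itself at 4.14 in adults, against 3.48 at P0, and the MAPK kinase gene Map2k1 at 7.43, against 4.20. Of 18 cullin 3 adaptor and ligase genes, 7 were higher and 5 lower. Among 16 reelin pathway genes 2 were higher and 7 lower. The lower ones included the reelin receptor gene Lrp8, at 3.74 in adults, against 5.22 at P0, and the adaptor gene Dab1, at 4.55, against 5.34.

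Of 14 microRNA silencing and 4EHP genes, 0 were higher and 7 lower, among them the Argonaute gene Ago1, at 3.90 in adults, against 4.73 at P0. Nonsense-mediated decay had 3 of 15 genes higher and 6 lower, and the lower ones held the exon junction genes Magoh, Rbm8a, Eif4a3 and Casc3. The NatA list also held Naa20 and Naa25, which belong to the related enzyme NatB and had ranges that overlapped. In this list 1 of 6 genes was higher, Naa50, and 3 were lower. Among the lower was the NatA catalytic subunit gene Naa10, at 4.74 in adults, against 5.23 at P0. The Mediator kinase module had 0 of 6 higher and 2 lower, Med12 and Cdk8. Beside the counts of adults against P0, the shares of all genes were 29.3% higher and 25.2% lower, as given above.

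Levels per length also allow each gene to be set beside its close relatives, here over 33 pairs paired by name after the table had been seen. In 9 pairs the autism gene was above its relative in all 44 libraries, and in 5 pairs the relative was. Those 5 were Arid1a over Arid1b, Asxl1 over Asxl3, Katnal1 over Katnal2, and both Tnrc6a and Tnrc6c over Tnrc6b. In 8 pairs the order turned between stages, with every library of a stage on one side and every library of another stage on the other.

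Myt1l had a median difference to its relative Myt1 of −1.69 log2 at e12.5, 0.70 at e14.5, 2.75 at e17.5, 3.45 at P0 and 4.77 in adults. It was above both Myt1 and St18 in all libraries from e14.5 on, against below both in all 8 libraries at e12.5. Foxp1 was above Foxp2 in all 10 libraries at e17.5 (median difference 1.37) and below it in all 9 at e14.5 (−0.19). Foxp1 was above Foxp4 in 5 of 6 adult libraries and below it in every library up to birth, with medians of 5.09 for Foxp1 and 5.51 for Foxp4 at P0.

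Cntnap2 and its relative Cntnap1, the paranodal counterpart of myelinated axons, ran in opposite directions. Cntnap1 had medians of −1.92 at e12.5, −0.96 at e14.5, −0.20 at e17.5, 0.73 at P0 and 5.96 in adults. Cntnap2 was below it in all 6 adult libraries and above it in all 38 libraries up to birth, with a median difference of −2.12 log2 in adults, against 6.80 at e12.5. Cntn4 was above Cntn6 in all 6 adult libraries and below it in every library up to birth (median difference 0.74 in adults, against −1.67 at P0), and it also passed Cntn5, which stood at 0.61 in adults, against 2.55 at P0.

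Asxl3 was below Asxl2 in all 6 adult libraries and above it in all 11 libraries at P0, with Asxl2 at 1.64 in adults, against 1.37 at P0. Med13l was above Med13 in all 6 adult libraries and below it in all 8 at e12.5. The median of Med13 was 2.78 in adults, against 3.76 at e12.5, and that of Med13l 3.73 in adults, against 3.37 at e12.5. Kdm6b was above its X-linked relative Kdm6a in 2 of 6 adult libraries, against all 38 libraries up to birth. Bcl11a stayed above Bcl11b in all but 2 of the 44 libraries.

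**Figure D4:**
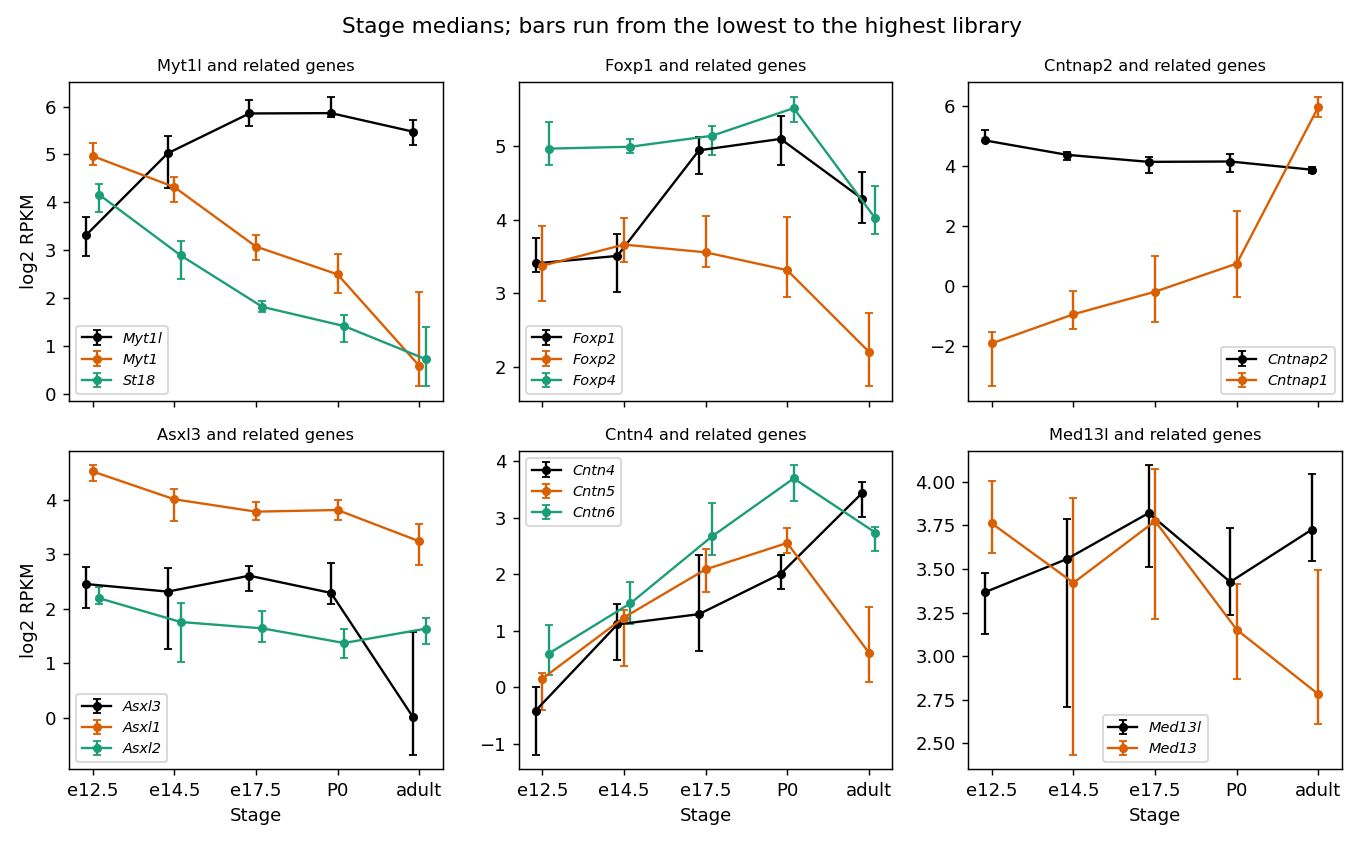
Stage medians (log2 RPKM) of 6 autism genes in black and their relatives in colour, with bars between the lowest and the highest library of a stage. Myt1l crosses its relatives between e12.5 and e14.5, Cntnap2 changes places with Cntnap1, and Cntn4 with Cntn5 and Cntn6, between P0 and adults, and Asxl1 stays above Asxl3.

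Within a stage, single libraries were low or high across many of the 36 genes at once. e14.5 library 7 was the lowest of its stage in 25 of 36 genes, where it was lowest in 21.8% of all genes, and lay a median of −0.46 log2 from the stage median over the 36 genes and 0.03 over all genes. Adult library 1 was the highest adult library in 24 of 36 genes (29.9% of all genes), with a median deviation of 0.28. Adult library 4 was the lowest adult library in 22 of 36 (23.6% of all genes), with a median deviation of −0.23. At e12.5, library 2 was highest in 20 of 36 (18.1% of all genes). The middle level of the 36 genes was 4.26 log2 RPKM, against 3.61 over all genes, so all genes are not a background of like level.

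Markers differed in adult library 1 as well. Its dividing-cell sum was 4.11 log2 RPKM, against 0.19 to 0.82 in the other 5 adult libraries, and its new neuron sum was 9.97, against 8.26 to 8.55. Its oligodendrocyte sum was the lowest of the 6, at 9.46, and that of adult library 4 the highest, at 10.86. Kdm6b was at 3.59 in adult library 1, against at most 2.65 in the other 5 adult libraries, and Spast at 4.91, against at most 4.06. The part of these markers in the values of the 36 genes was not tested. Without adult library 1, Arid1b, Kdm5b, Setd5, Tcf20, Naa15 and Dyrk1a joined the genes called lower in adults than at P0. Without e14.5 libraries 7 and 8, 1 gene was lower at e17.5 than at e14.5, against 0 with all libraries.

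**Figure D5:**
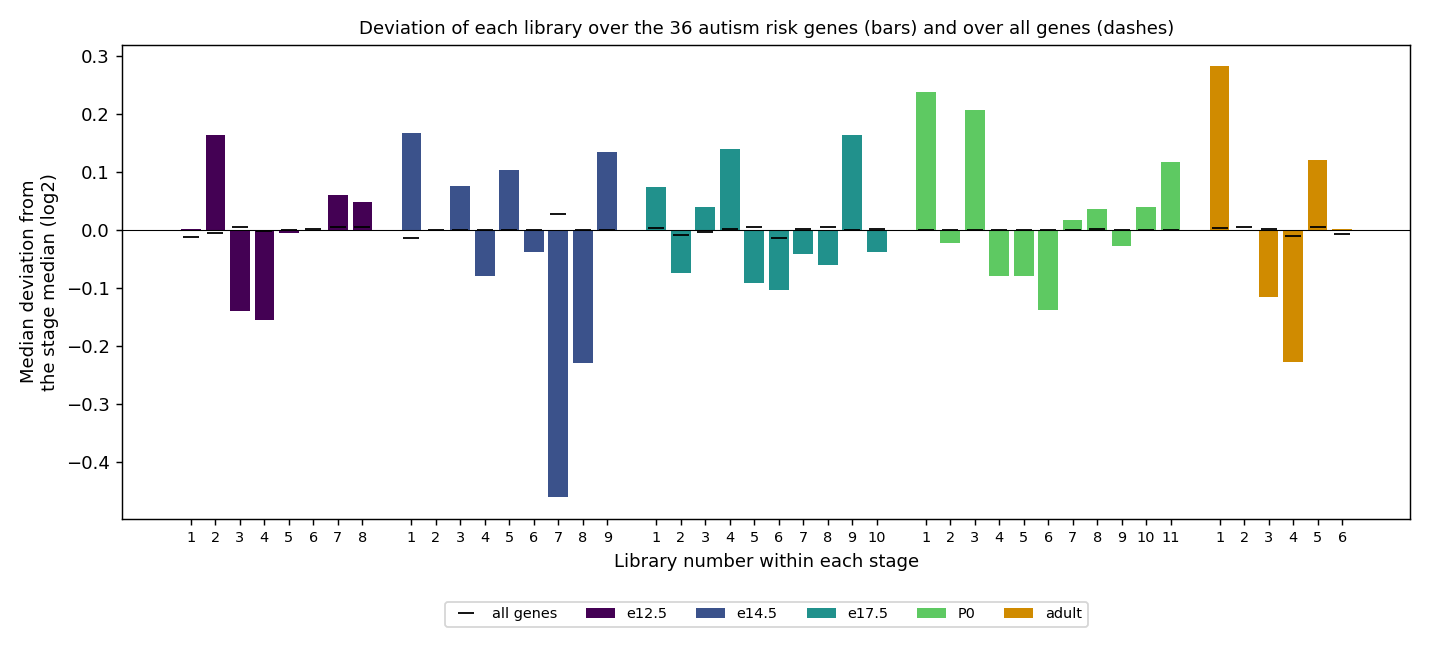
Median deviation of each of 44 libraries from its stage median (log2) over the 36 genes (bars, coloured by stage) and over all 12102 genes (dashes). e14.5 library 7 (−0.46) and adult library 1 (0.28) are the extremes of the bars. The dashes stay near 0, where scaling by library size tends to place a median over all genes, so they are not a matched background.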

How the data were processed

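RNA was measured in 44 forebrain libraries of 5 stages. Per the labels, the authors deposited log RPKM, and the deposited values were read as log2: low values lay on whole-read steps (within 0.05) in a median of 78.0%, 76.9%, 36.9%, 58.8% and 37.5% of cases from e12.5 to adults with base 2, and 58.9%, 55.6%, 33.3%, 41.7% and 25.0% with base e. Base 10 gave 76.8%, 58.5%, 25.0%, 43.8% and 66.7% (1 adult library), but would put the highest value, 13.27, at 1.85e+13 RPKM. Steps were rare at e17.5 and in adults, so levels there are less surely comparable, and every fold rests on base 2. Per the submitters' processing notes, bcl2fastq, the aligners STAR 2.4.2a and BWA 0.7.13 and the peak caller MACS2 2.10 were used on build mm9. The sources used here do not give the read counter, the annotation or the scaling between libraries. The deposited Chd8 peak list, with the authors' score, fold enrichment (a ratio) and −log10 p and q, was not assigned to genes, because no mm9 annotation was used.

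No column matched 1 sample, so the planned genotype tests were replaced by medians and ranges of stages. Libraries were numbered within a stage in table order, which is only a name. No source says which libraries came from separate animals, so a range may hold technical spread alone. The filter removed 56 genes whose mean over the 44 libraries was −2 log2 RPKM or lower. Differences are of stage medians. The authors' log values hold an unstated prior count, so folds understate the difference of low genes. The members, the 9 partner lists and the related genes were chosen with earlier results of these data known. All 36 members are named, and partners and relatives were picked by hand from their lists after their values were seen. Some genes of the lists are not reported here. The range comparison was tested on simulated data. Python 3.11.15, pandas 2.3.3 and numpy 2.4.6 were used. Alternatives were median centring, quantile normalization, other filters, log2(RPKM + 1), a minimum difference of 1, means for medians, each library left out and, added after seeing the data, single e17.5 naming sets and e14.5 without libraries 7 and 8.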

Additional observations from a re-analysis of the deposited data

Results flagged for a closer look

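Values were searched in 148 sets, each of the 36 genes and Chd8 at 4 stages, for a library far from the rest by Dixon's 95% limit. P0 has 11 libraries and was not searched. In 15 sets a library stood apart, where about 1 in 20, or 7.4, would by chance, and libraries recur because genes share them. e14.5 library 7 was far below the other e14.5 libraries for Arid1b (3.05 log2 RPKM, next lowest 3.40), Med13l (2.71), Tcf20 (4.08) and Tsc1 (3.34). Adult library 1 was far above the other adult libraries for Kdm6b (3.59), Naa15 (3.90) and Spast (4.91).

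At e17.5, library 9 was far above the rest for Wac (5.18) and Cul3 (6.40), and library 5 far below for Nf1 (2.40) and Ank2 (4.72). At e12.5, library 7 was high for Cul3 (6.52), library 2 for Trip12 (5.75) and library 6 for Cntnap2 (5.19). At e14.5, library 9 was low for Katnal2 (1.07).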

How the results depend on the processing

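No paired analysis was possible because the libraries carry no replicate number that the labels explain. Across single genes, 4455 values kept their call or stayed uncalled, 44 gained and 37 lost a call, and 0 calls reversed. Most settings could not lose a call, so this tally is a weak check of stability. Leaving libraries out only narrows ranges, log2(RPKM + 1) keeps the order of values, and the filters leave the values of kept genes unchanged. Only median centring, quantile normalization and the minimum difference of 1 could remove a call. The direction of genes that stayed uncalled was not checked. Requiring a difference of at least 1 left 0 lower genes at e14.5 against e12.5, 1 higher at e17.5 against e14.5, 0 higher and 0 lower at P0 against e17.5, 1 higher and 7 lower in adults against P0, and 6 lower in adults against e14.5. With e17.5 naming set 1 alone, 1 gene was lower at e17.5 than at e14.5 and 2 higher at P0 than at e17.5. With set 2 alone, 8 were higher and 1 lower at e17.5 than at e14.5, and 3 higher at P0. Without e14.5 libraries 7 and 8, 1 was lower at e17.5. Median centring gave 2 higher at P0 than at e17.5, and quantile normalization 1 higher in adults than at P0. The highest median was at e14.5 in 1 gene and at e17.5 in 7 with median centring, and in 1 and 9 with quantile normalization. Without e12.5 it was at e12.5 in 0 genes, by construction, and at e14.5 in 12. The cause of the other shifts was not tested.

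Leaving out each library in turn can add calls but not remove them, so the lower ends of these counts were fixed in advance. Shares of all genes under these settings are not given here. It gave 1 to 2 genes higher at P0 than at e17.5 (2 without P0 library 4 or e17.5 library 2). It gave 3 to 4 higher and 9 to 10 lower at e14.5 than at e12.5, and 5 to 6 higher at e17.5 than at e14.5. In adults it gave 2 to 3 higher and 14 to 20 lower than at P0, and 4 to 6 higher and 13 to 14 lower than at e14.5. Depth is unknown, so the precision of low genes such as Cntn4 at e12.5 could not be set.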
